A study of Mus musculus with 14 samples.

Results

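Tenm2, Tenm3, Nell1, Calcrl, P2rx3, Kcnt2, Ugt8a, Tlcd4, Foxa1 and Amph are 10 of the 18193 genes represented on the arrays of a study of partial reprogramming in mouse cells. They were chosen by their log2 differences, as genes lowest on the arrays of cells given subunits of the Ccr4-Not complex, against the array of cells given an empty vector. That contrast is therefore a description of the 10 genes and carries no test. All 10 passed the filter on dim genes, which left 12663 genes for comparison, and together they have 23 probe sets (groups of probes for a transcript).

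Gene expression was measured on 14 Affymetrix mouse arrays, 1 per cell sample, as log2 signal after RMA, a method that corrects background and normalizes the arrays of a set to one another. Partial iPSCs are clonal lines that began reprogramming but did not reach pluripotency, and the series asks what moves them to genuine iPSCs. The transduced arrays all carry the labels of clone 2B1, a female C57BL/6 partial iPSC line grown with LIF and serum. They hold 1 sample each with Cnot1, with Cnot2, with Cnot3, with Cnot1, Cnot2 and Cnot3 together (called Cnot123 here), with Trim28, with Nanog and with empty vector. Per the labels, the Cnot and Trim28 cDNAs came in by retrovirus, and Nanog and the empty vector were stably integrated. The other 7 arrays hold iPSCs obtained from the clones 2B1 and 5C5 by the 2i condition (1 array each, female C57BL/6), male Nanog-GFP ESCs (C57BL/6), male EBRTcH3 wild-type ESCs (129sv), and Nanog-GFP transgenic embryonic fibroblasts, called MEFs here, of mixed sex (C57BL/6). They also hold untreated 5C5 and untreated 2B1 partial iPSCs, both labelled as female C57BL/6 and grown with LIF and serum. The ESC lines had the same conventional medium, and the MEFs had no LIF. The title of the MEF sample gives 12.5 dpc for its embryos and the text of the series 13.5 dpc.

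Ccr4-Not is a conserved multi-subunit complex that removes the poly(A) tails of mRNAs and thereby influences their stability and translation. Cnot1 is its scaffold, and Cnot2 and Cnot3 bind to it without being deadenylases themselves. Trim28 is a co-repressor recruited by zinc finger proteins, Nanog is a transcription factor of naive pluripotency, and 2i denotes the inhibition of MEK and GSK3 that favours naive pluripotency.

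By their array means, the arrays fell into 2 sets of 7, read here as separately normalized. The means were 6.09 for the untreated, 2i, MEF and ESC arrays and 5.87 to 5.88 for the transduced arrays. Among other genes, the transduced arrays did not all lie near untreated 2B1. Over all tested genes, the arrays labelled Cnot1, Cnot2, Cnot3 and Cnot123 had Pearson correlations across genes of 0.965, 0.962, 0.965 and 0.965 with untreated 2B1, against 0.921, 0.937, 0.936 and 0.921 with untreated 5C5. For the array labelled empty vector the order was turned, with 0.927 for untreated 2B1 and 0.961 for untreated 5C5. It was turned as well for Trim28, with 0.946 and 0.952, and for Nanog, with 0.929 and 0.954. Genes are not independent replicates, and these values describe the arrays without a test. On a scale where untreated 2B1 is 0 and untreated 5C5 is 1, the median position of 238 other genes at least 4-fold higher in untreated 5C5 was 0.12 on the Cnot1 array, 0.33 on Cnot2, 0.27 on Cnot3, 0.04 on Cnot123, 0.59 on Trim28, 0.70 on Nanog and 0.83 on empty vector. The array used to choose the 10 genes thus lay nearer to untreated 5C5 than to untreated 2B1 on these genes, although its label is 2B1. Why it did was not tested, and results against empty vector are therefore also given against Trim28, Nanog and untreated 2B1. The Trim28 and Nanog arrays also lay nearer to untreated 5C5 on these 238 genes, so a comparison with them does not remove that shift. On 135 genes at least 4-fold higher in untreated 2B1, the median position was 0.29 on Trim28, 0.59 on Nanog and 0.60 on empty vector. On those 135 genes Trim28 thus lay nearer to untreated 2B1, unlike Nanog and empty vector.

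**Figure D1:**
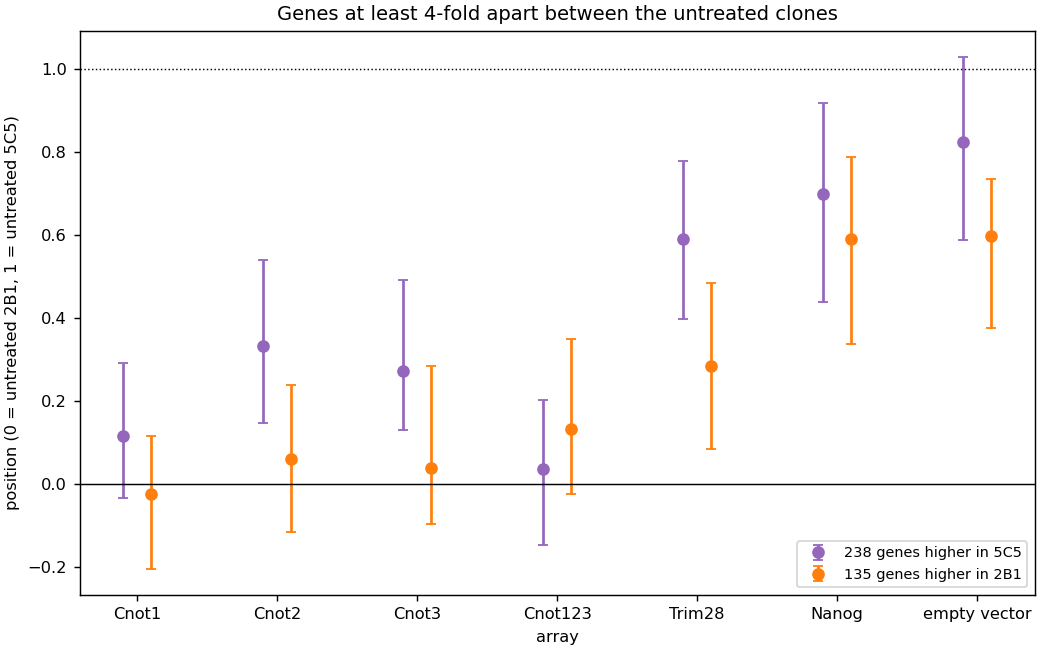
Median position (y axis, 0 = untreated 2B1, 1 = untreated 5C5, no unit) of genes at least 4-fold apart between the untreated clones on each transduced array (x axis), for 238 genes higher in 5C5 and 135 genes higher in 2B1, with bars from the lower to the upper quartile over genes and the 10 described genes left out. The Cnot arrays have medians between -0.02 and 0.33, and the empty vector array has medians of 0.83 and 0.60.

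The signals of the introduced factors were not higher by 2-fold on their own arrays. Over the 13 probe sets of Cnot1, Cnot2, Cnot3, Trim28 and Nanog, the log2 difference between the array of cells given that factor and the empty vector array lay between -0.99, for Nanog, and 0.30. Whether these probe sets cover the introduced cDNAs is not given in the sources used here, so the labels could not be checked this way. The mean log2 level of 8 naive pluripotency markers was 4.80 to 5.14 on the 4 Cnot arrays and 4.87 on empty vector, against 11.1 to 11.2 in 2i iPSCs and 5.34 to 5.57 in untreated clones. The mean of 10 fibroblast markers was 5.44 to 6.07 on Cnot arrays and 5.22 on empty vector, against 7.27 to 7.60 in the untreated clones, and 11.7 in MEFs. The untreated clones thus lay above all transduced arrays on this list, across the separately normalized sets. For 7 neural markers it was 5.70 to 6.18 on the Cnot arrays, where 3 to 5 of them reached the median of the whole table, and 6.65 on empty vector with 5 of 7, against 6.80 in untreated 5C5 and 5.74 in untreated 2B1. Of these, Map2 and Pax6 were at least 2-fold lower on all 4 Cnot arrays than on empty vector, as were 3.17% of the 12663 tested genes. Sox1 and Nes lay below empty vector on all 4 without reaching 2-fold on each. Dcx lay above it on all 4, and Tubb3 and Neurog2 lay above it on some and below on others. The part of the fibroblast and neural markers in the results was not tested.

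Sequences upstream of the genes were examined because Foxa1, one of the 10, encodes a forkhead factor that binds DNA and opens chromatin. RefSeq windows of the 250 bases before a start site (GRCm38.p6) were at hand for 9 of the 10 genes, all but P2rx3, with 10 windows in all. The forkhead motif TGTTTNC, searched on both strands, lay in the windows of Foxa1, Tenm2 and Calcrl, its first base 141, 47 and 54 bases before the start. It was present in 17.8% of all 32851 windows, so its presence in 3 of the 10 windows is a description only. The start sites used for Foxa1, Tenm2, Tenm3 and Tlcd4 (the window with the E-box) lie inside the annotated gene, 1918, 292812, 848134 and 19768 bases from its 5′ end. The windows are shown 5′ to 3′ on the gene's own strand, which is the minus strand for all 3, with the forkhead motif in capitals, at chr12:57546112-57546361 for Foxa1, chr11:36944242-36944491 for Tenm2 and chr2:84425267-84425516 for Calcrl.
Foxa1: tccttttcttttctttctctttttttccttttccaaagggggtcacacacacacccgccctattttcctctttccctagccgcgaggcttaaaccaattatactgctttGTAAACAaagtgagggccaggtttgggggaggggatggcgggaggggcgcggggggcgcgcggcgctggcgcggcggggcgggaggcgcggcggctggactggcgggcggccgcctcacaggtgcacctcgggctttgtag
Tenm2: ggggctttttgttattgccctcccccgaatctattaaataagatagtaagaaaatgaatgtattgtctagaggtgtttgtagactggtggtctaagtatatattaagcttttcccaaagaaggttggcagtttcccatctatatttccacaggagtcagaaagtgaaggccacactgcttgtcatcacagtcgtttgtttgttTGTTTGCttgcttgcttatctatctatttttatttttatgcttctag
Calcrl: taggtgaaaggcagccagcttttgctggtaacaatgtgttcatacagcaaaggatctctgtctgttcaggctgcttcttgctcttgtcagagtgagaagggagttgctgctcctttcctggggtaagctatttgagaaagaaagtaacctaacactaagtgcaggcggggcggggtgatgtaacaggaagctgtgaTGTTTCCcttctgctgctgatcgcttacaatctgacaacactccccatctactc

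The Foxa1 and Calcrl windows each hold the motif once, and in the Tenm2 window it follows a run of repeated tgtt letters. The E-box CACGTG, the palindromic motif bound by Myc, lay in 1 of 2 overlapping Tlcd4 windows, 107 bases before the start, and in 6.02% of all windows. Myc is a common reprogramming factor, and this window (chr3:121263341-121263590, minus strand) is shown with the E-box in capitals.
Tlcd4: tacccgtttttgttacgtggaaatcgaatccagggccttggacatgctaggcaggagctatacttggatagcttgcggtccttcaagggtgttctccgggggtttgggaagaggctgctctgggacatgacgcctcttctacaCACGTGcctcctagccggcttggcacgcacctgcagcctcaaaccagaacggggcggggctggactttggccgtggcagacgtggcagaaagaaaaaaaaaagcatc
The AP-1 motif TGANTCA and the TATA box letters TATAAA were in none of the 10 windows, and in 6.75% and 12.4% of all windows. No motif match overlapped another in these windows, since each held at most 1. The windows held 2 CpG (Tenm2) to 32 CpG (Ugt8a), with a median of 12.5 against 6 over all windows.

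On the transduced arrays, the 10 genes had their highest or near-highest signal with empty vector and lower signals with each Ccr4-Not subunit. The mean difference of the 4 Cnot arrays from empty vector ran from 5.56-fold lower for Amph to 21.4-fold lower for Nell1, which are the values that chose the genes. All 10 were at least 2-fold lower than empty vector on every Cnot array, as were 3.17% of the 12663 tested genes on all 4 of them. Array by array, 10 of 10 were past 2-fold where the share of all tested genes was 5.87% on Cnot1, 3.89% on Cnot2, 5.19% on Cnot3 and 8.43% on Cnot123. With 1 array per condition there is no replicate error for these differences, and less RNA per cell cannot be told apart from fewer cells that express a gene. By the labels, the Cnot cDNAs came in by retrovirus and the empty vector was stably integrated. The Cnot arrays thus differ from this control in delivery as well as in the subunit, and the part of delivery was not tested.

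**Figure D2:**
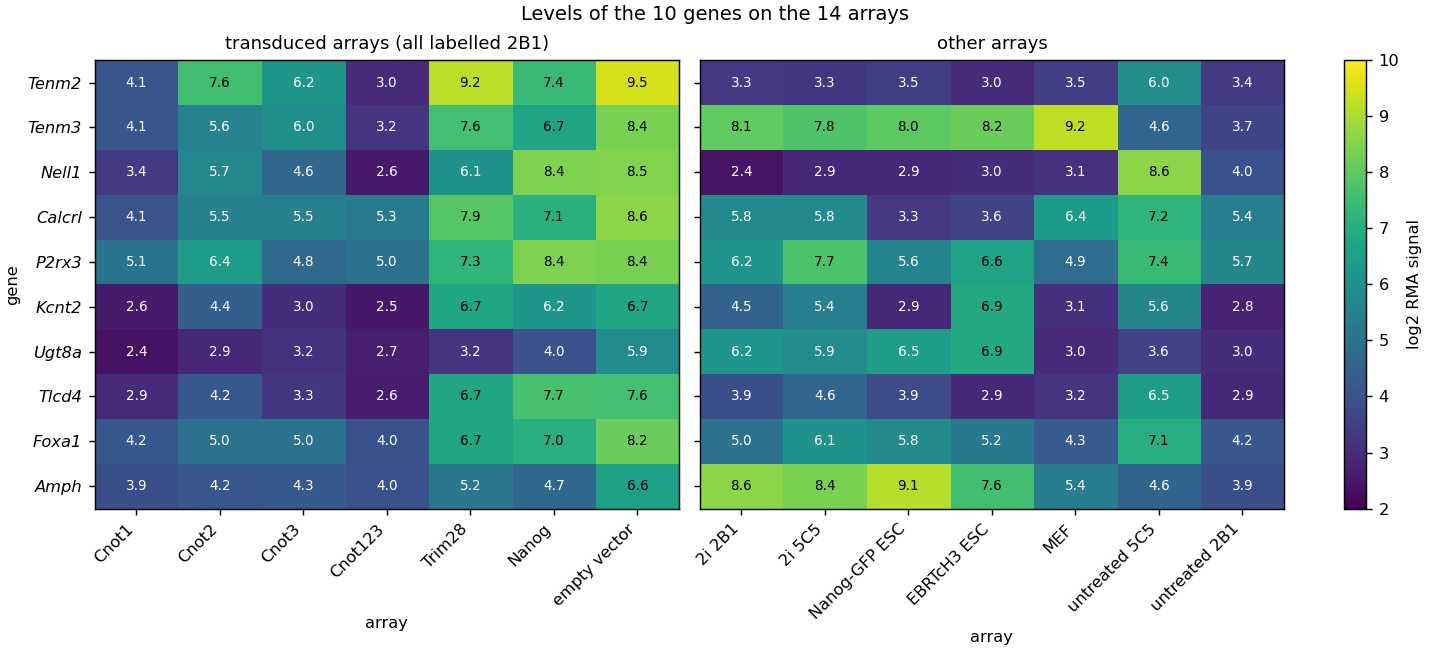
Log2 RMA signal (colour and printed values) of the 10 genes (rows) on the 7 transduced arrays, left, and on the 7 other arrays, right (columns, 1 array each, the sets normalized separately). Cnot1 and Cnot123 columns are mostly dark, as is untreated 2B1 at the right edge, whereas empty vector lies between 5.86 and 9.49.

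Tenm2, Tenm3 and Nell1 encode cell surface and secreted proteins. Tenm2 encodes a teneurin, a large transmembrane protein that binds latrophilins on neighbouring neurons. Its log2 level (chromosome 11, probe set 1457273_at) was 4.13 on Cnot1, 7.57 on Cnot2, 6.25 on Cnot3, 2.99 on Cnot123, 9.19 on Trim28, 7.41 on Nanog and 9.49 on empty vector. The lowest of the other arrays minus the highest Cnot array was -0.15, so Tenm2 was the 1 gene of the 10 whose Cnot arrays were not all below the other 3. Tenm3, a teneurin used in the wiring of visual and hippocampal circuits, was at 4.14 on Cnot1, 5.55 on Cnot2, 5.98 on Cnot3, 3.23 on Cnot123, 7.61 on Trim28, 6.66 on Nanog and 8.38 on empty vector (chromosome 8, 1449315_at). Here all 4 Cnot arrays lay below the other 3. Nell1 encodes a secreted glycoprotein with EGF-like repeats that promotes bone formation. It had 3.35 on Cnot1, 5.71 on Cnot2, 4.64 on Cnot3, 2.55 on Cnot123, 6.09 on Trim28, 8.44 on Nanog and 8.49 on empty vector (chromosome 7, 1433787_at). The Trim28 array stood with the lower values for Nell1 and Nanog with the empty vector value, which is the reverse of Tenm2.

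Calcrl, P2rx3 and Kcnt2 encode a receptor and ion channels, and for each the 4 Cnot arrays lay below the other 3. Calcrl is the receptor that forms the CGRP and adrenomedullin receptors together with RAMP proteins. It measured 4.08 on Cnot1, 5.48 on Cnot2, 5.48 on Cnot3, 5.32 on Cnot123, 7.91 on Trim28, 7.07 on Nanog and 8.61 on empty vector (chromosome 2, 1425814_a_at). Cnot1 was thus the lowest for Calcrl, by 1.23 or more, and the remaining Cnot arrays lay close together. P2rx3, an ATP-gated cation channel of sensory neurons, gave 5.12 on Cnot1, 6.42 on Cnot2, 4.76 on Cnot3, 5.03 on Cnot123, 7.26 on Trim28, 8.42 on Nanog and 8.35 on empty vector (chromosome 2, 1425093_at). It was the only gene of the 10 lowest on Cnot3. Kcnt2, a sodium-activated potassium channel, gave 2.57 on Cnot1, 4.43 on Cnot2, 3.05 on Cnot3, 2.51 on Cnot123, 6.74 on Trim28, 6.24 on Nanog and 6.71 on empty vector (chromosome 1, 1459971_at). Trim28 and empty vector differed by 0.03 for Kcnt2, while Cnot1 and Cnot123 were near the lower end of the scale.

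Ugt8a and Tlcd4 encode membrane proteins inside the cell. Ugt8a makes galactosylceramide, the main glycolipid of myelin, and had 2.40 on Cnot1, 2.93 on Cnot2, 3.17 on Cnot3, 2.67 on Cnot123, 3.20 on Trim28, 4.03 on Nanog and 5.86 on empty vector (chromosome 3, 1419063_at). Only the empty vector array stood clear for Ugt8a, since Trim28 was 0.03 above Cnot3. Tlcd4, of the TLC domain family, read 2.95 on Cnot1, 4.21 on Cnot2, 3.31 on Cnot3, 2.63 on Cnot123, 6.75 on Trim28, 7.68 on Nanog and 7.62 on empty vector (chromosome 3, 1434553_at). The lowest of the other arrays exceeded the highest Cnot array by 2.54 for Tlcd4, the widest such gap of the 10.

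The transcription factor and the endocytic protein of the group had intermediate levels. Foxa1, which helps to specify endoderm, read 4.19 on Cnot1, 5.01 on Cnot2, 5.03 on Cnot3, 3.98 on Cnot123, 6.70 on Trim28, 7.0 on Nanog and 8.19 on empty vector (chromosome 12, 1418496_at). The Cnot arrays of Foxa1 did not overlap the others, while the mean of 8 other endoderm markers was 4.62 to 4.73 on Cnot arrays and 4.55 on empty vector. Amph encodes amphiphysin, which shapes membranes at synaptic vesicle endocytosis. It read 3.91 on Cnot1, 4.16 on Cnot2, 4.25 on Cnot3, 4.01 on Cnot123, 5.21 on Trim28, 4.71 on Nanog and 6.56 on empty vector (chromosome 13, 1427044_a_at). Its Cnot arrays lay within 0.34 of one another, the narrowest range of the 10.

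Among the Cnot arrays, Cnot123 gave the lowest level for 6 genes, Cnot1 for 3 and Cnot3 for 1. The highest was Cnot2 for 5 genes and Cnot3 for 5. The median difference from empty vector was -4.20 on Cnot1, -2.80 on Cnot2, -3.20 on Cnot3 and -4.20 on Cnot123, beside medians over all tested genes of -0.05, -0.04, -0.01 and -0.01. For 6 genes a Cnot array was below the 25th percentile of its own values, so those differences are limited by background. The 13 other probe sets of the 10 genes were dimmer. Of these, 8 never reached the median of the whole table, and 5 were at least 2-fold lower on the Cnot mean than on empty vector. Each of the 5 belonged to Tenm2, Tenm3 or P2rx3, with mean differences from -1.57 to -3.59.

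**Figure D3:**
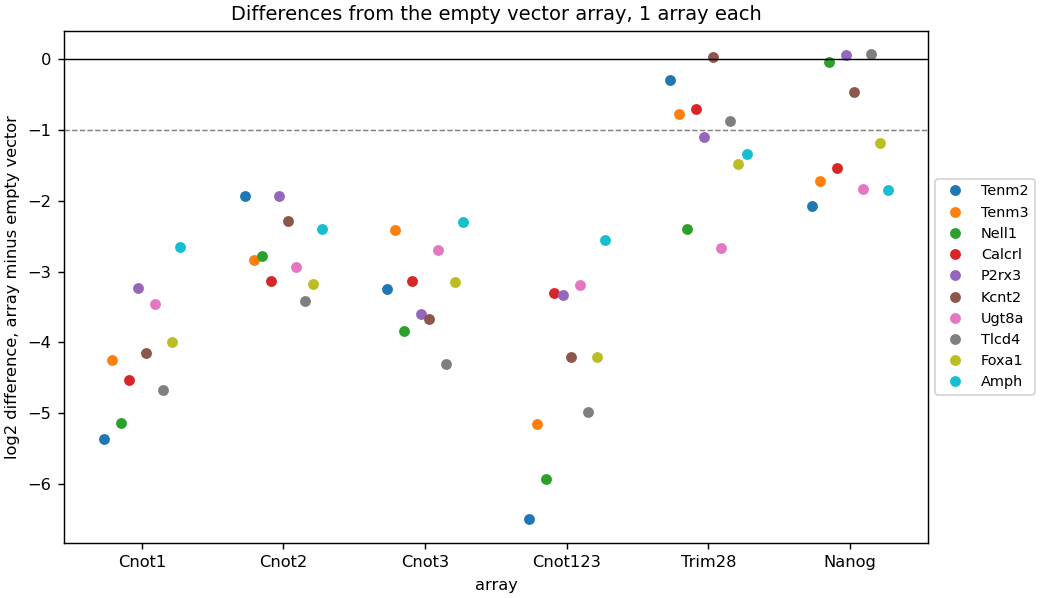
Log2 difference from the empty vector array (y axis) of the 10 genes (coloured points) on the 6 other transduced arrays (x axis, 1 array each), with lines at 0 and at a 2-fold decrease. All points of the 4 Cnot arrays lie below the 2-fold line, and Trim28 and Nanog spread from -2.66 to 0.07.

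Trim28 and Nanog also gave lower signals than empty vector, by less and in fewer of the genes. The differences share the empty vector array with the choice of the genes and are given as values only. On Trim28, 5 of the 10 were at least 2-fold lower (1.52% of all tested genes), with a median difference of -0.98. Ugt8a and Nell1 differed most there, at -2.66 and -2.39, and Kcnt2 and Tenm2 least, at 0.03 and -0.30. On Nanog, 6 of the 10 were past 2-fold (0.869% of all tested genes), with a median of -1.36. Tenm2 had the lowest value, -2.08, whereas Nell1, Tlcd4 and P2rx3 were between -0.04 and 0.07. Trim28 was lower than Nanog for 5 genes and higher for 5, so the arrays split the group differently.

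The same Cnot values were also set against Trim28 and Nanog in place of empty vector. Since low values on the Cnot arrays chose the genes, these counts are in part fixed by that choice and are a description. All 4 Cnot arrays were at least 2-fold lower than Trim28 for 6 of the 10, where 0.908% of tested genes were, and at least 2-fold lower than Nanog for 6 of the 10, where 2.61% were. By single array, 9 genes were past 2-fold against Trim28 on Cnot1, 7 on Cnot2, 8 on Cnot3 and 9 on Cnot123. Against Nanog the counts were 9, 8, 7 and 9. For these single-array counts the share over all tested genes was not computed, so nothing is read from their size. Ugt8a was the gene within 2-fold of Trim28 on all 4 Cnot arrays, with Trim28 at 3.20.

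Untreated 2B1, the parental clone by the labels, was as low as the lowest Cnot arrays. Because its array belongs to the other normalization set, all 14 arrays were quantile normalized together for this comparison, and the median difference over all genes then lay between -0.05 and -0.09 on each array. Such a median is largely set by the normalization, which does not remove differences of single genes between the sets. In the deposited values, the mean of 10 fibroblast markers was 7.60 in untreated 2B1 and 5.22 to 6.07 on the transduced arrays. The 10 genes had median differences from untreated 2B1 of 0.09 on Cnot1, 1.29 on Cnot2, 0.59 on Cnot3, -0.11 on Cnot123, 2.68 on Trim28, 3.09 on Nanog and 4.12 on empty vector. The empty vector array was at least 2-fold higher than untreated 2B1 for 10 of 10 genes, by 2.75 to 6.33 (6.22% of tested genes were so). Trim28 and Nanog were for 9 each (4.59% and 6.06%), Cnot2 for 6 (3.32%), Cnot3 for 3 (2.32%), and Cnot1 and Cnot123 for 0 (2.68% and 2.16%). A decrease of at least 2-fold below untreated 2B1 was seen for Calcrl on Cnot1 (log2 difference -1.21) and for Nell1 on Cnot123 (-1.29), and in no other case among the 10 genes on the 7 arrays. The share of all tested genes lower by that much was not computed.

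**Figure D4:**
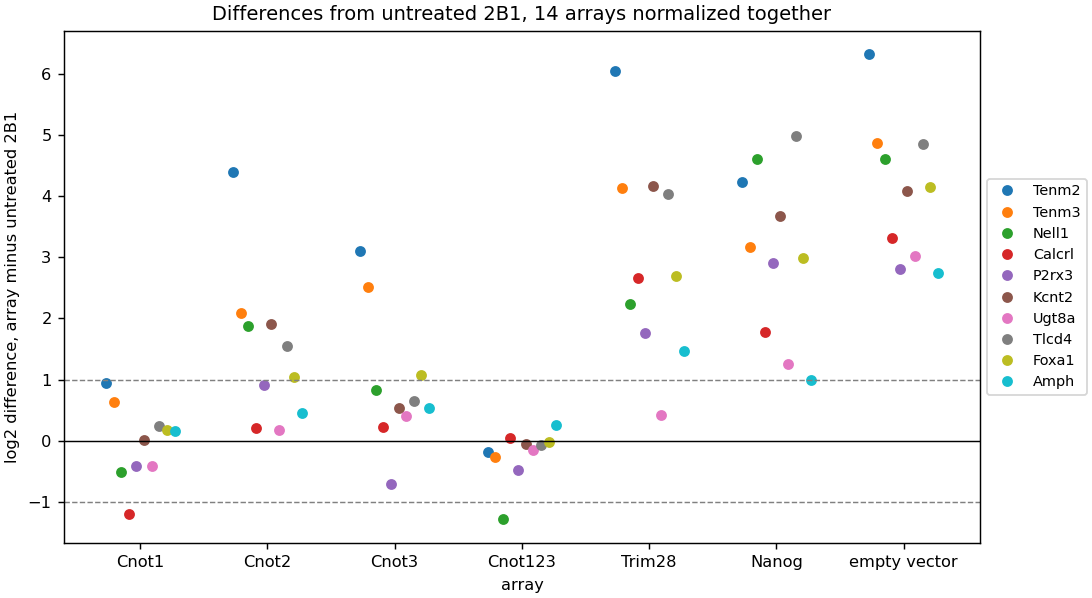
Log2 difference from untreated 2B1 (y axis) of the 10 genes (coloured points) on the 7 transduced arrays (x axis, 1 array each), after quantile normalization of all 14 arrays together, with lines at 0 and at 2-fold either way. Cnot1 and Cnot123 points scatter around 0, with medians of 0.09 and -0.11, and all empty vector points lie from 2.75 to 6.33.

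Single genes departed from that order. Tenm2 was at 4.20 on Cnot1, 7.66 on Cnot2, 6.36 on Cnot3, 3.07 on Cnot123 and 9.58 on empty vector, against 3.25 in untreated 2B1 on the common scale, so Cnot2 exceeded the untreated clone by 4.41. Tenm3 was above it by 2.08 on Cnot2 and 2.51 on Cnot3. P2rx3 lay below untreated 2B1 on Cnot1, Cnot3 and Cnot123, with differences of -0.42, -0.72 and -0.48, all within 2-fold. For Foxa1 the difference was 0.17 on Cnot1, 1.03 on Cnot2, 1.07 on Cnot3, -0.03 on Cnot123 and 4.16 on empty vector. Ugt8a, Amph and P2rx3 stayed within 2-fold of untreated 2B1 on all 4 Cnot arrays, P2rx3 with a difference of 0.90 on Cnot2.

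The untreated clones themselves differed in these genes. Their arrays did not enter the choice of the genes, but the empty vector array lay nearer to untreated 5C5 and the Cnot arrays nearer to untreated 2B1, so this comparison is not independent of the choice. All 10 were higher in untreated 5C5 than in untreated 2B1, with a median difference of 2.22, while over all tested genes the median was -0.002 and 49.8% lay above 0. The difference was at least 2-fold for 7 of the 10, against 6.22% of tested genes. With 1 array per clone it carries no test. Nell1 differed most, at 8.60 in 5C5 and 4.01 in 2B1. Tlcd4 was at 6.47 in 5C5 and 2.90 in 2B1, and Foxa1 at 7.05 and 4.16 in the same order. Tenm3, Ugt8a and Amph were the 3 genes within 2-fold, at 4.61, 3.61 and 4.58 in 5C5, against 3.66, 3.01 and 3.91 in 2B1.

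In 2i iPSCs 3 of the 10 genes were higher than in untreated partial iPSCs, namely the 3 that were within 2-fold between the clones. All 10 were tested with limma across 6 arrays (2 per group of 2i iPSCs, ESCs and untreated partial iPSCs, where the arrays of a group are separate clones or lines), with Benjamini-Hochberg adjustment over all 12663 genes. Tenm3 had 8.06 and 7.79 in the 2i iPSCs of 2B1 and 5C5, against 3.66 and 4.61 in the untreated clones. Its log2 difference was 3.79 ± 0.36 (SE, limma adjusted p = 0.00940). With every probe set tested, the other Tenm3 probe set, 1429178_at, differed by 1.69 and was not called (limma adjusted p = 0.0550). Ugt8a had 6.20 and 5.87 in 2i iPSCs, against 3.01 and 3.61 untreated, a difference of 2.73 ± 0.30 (SE, limma adjusted p = 0.0139). The other Ugt8a probe set, 1419064_a_at, never reached the median of the whole table and differed by -0.04 with every probe set tested (limma adjusted p = 0.948). Amph had 8.61 and 8.38 in 2i iPSCs, against 3.91 and 4.58 untreated, a difference of 4.25 ± 0.55 (SE, limma adjusted p = 0.0197). These 3 genes encode a teneurin, a galactolipid enzyme and an endocytic protein. The 2i and untreated arrays did not overlap for 5 of the 10 genes, these 3 and the uncalled Tenm2 and Nell1, nor for 63.7% of all tested genes. With the clone added as a term to the fit of 6 arrays, Amph was no longer called (limma adjusted p = 0.0553). Each of the 3 calls was also lost when either 2i array was left out (limma adjusted p = 0.0977 to 0.160). Amph was lost as well without untreated 2B1 (limma adjusted p = 0.0688) or untreated 5C5 (0.0576), so its call needed all 4 compared arrays.

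None of the 10 was called lower in 2i iPSCs by limma, and 4 had an unadjusted p under 0.05. The shares over all tested genes were 3.55% for higher and 2.46% for lower calls, which are shares at adjusted p below 0.05. They do not apply to the count of 4, since the share with an unadjusted p under 0.05 was not computed. Nell1 had the fourth such p, with 2.43 and 2.88 in 2i iPSCs, against 4.01 and 8.60 in untreated 2B1 and 5C5 (log2 difference -3.65, SE 1.43, limma adjusted p = 0.204). The spread between the untreated clones exceeded that between the 2i iPSCs for Nell1. Without untreated 2B1 the log2 difference was -5.94 for Nell1 and -2.66 for Tenm2, resting on the untreated array of 5C5 alone. Tenm2 had 3.31 and 3.30 in 2i iPSCs, against 3.35 and 5.97 untreated, so only the 5C5 cells stood apart. The median log2 difference of the 10 genes was 0.17, and 0.03 over all tested genes.

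**Figure D5:**
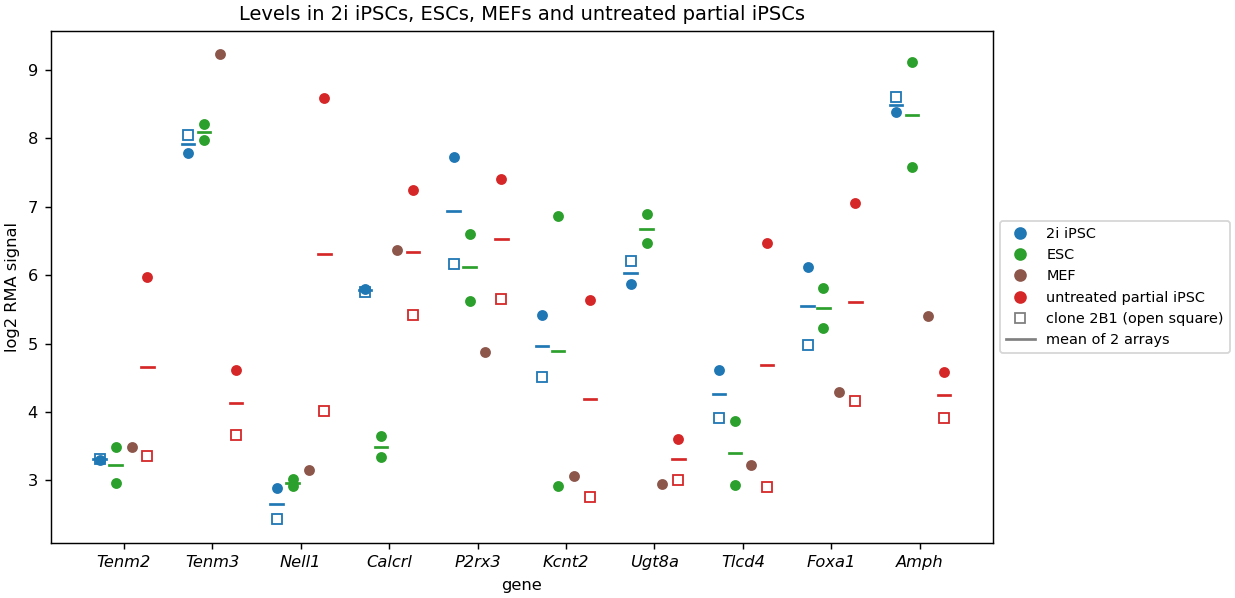
Log2 RMA signal (y axis) of the 10 genes (x axis) in 2i iPSCs, ESCs, MEFs and untreated partial iPSCs, 1 point per array, with clone 2B1 as open squares and short lines at the mean of 2 arrays. Tenm3, Ugt8a and Amph lie higher in 2i iPSCs and ESCs than in untreated cells, and the untreated 5C5 point lies above 2B1 for all 10 genes.

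ESCs differed from untreated partial iPSCs in the same 3 genes and in Calcrl. Tenm3 was at 7.97 in Nanog-GFP ESCs and 8.21 in EBRTcH3 ESCs, 3.96 ± 0.36 above untreated (SE, limma adjusted p = 0.00363). Ugt8a was at 6.47 and 6.89 in these lines, 3.37 ± 0.30 above untreated (SE, limma adjusted p = 0.00356). With every probe set tested, the other Tenm3 probe set was called at 2.48 (limma adjusted p = 0.0116), and that of Ugt8a was not, at 0.30 (limma adjusted p = 0.390). Amph was at 9.11 and 7.59, 4.10 ± 0.55 above untreated (SE, limma adjusted p = 0.0108). Calcrl was lower, with 3.34 and 3.65 in ESCs, against 5.42 and 7.25 in untreated 2B1 and 5C5 (log2 difference -2.84, SE 0.60, limma adjusted p = 0.0360). The Calcrl call was lost with the 4 compared arrays alone or without either 2i array (limma adjusted p = 0.0953), with the mean of its probe sets (0.0574), and without either ESC array (0.0905 and 0.0771). Over all tested genes, higher calls made up 6.09% and lower calls 9.82%. The remaining 6 genes were not called, among them Nell1 with 2.92 and 3.02 in ESCs (log2 difference -3.34, SE 1.43, limma adjusted p = 0.179). Without untreated 2B1, the log2 differences of ESCs were -5.63 for Nell1, -2.74 for Tenm2 and -3.07 for Tlcd4. They then rest on the 1 untreated array of 5C5, with no spread between untreated clones in the fit. The median of the 10 was -0.25 and that of all tested genes 0.003.

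Between 2i iPSCs and ESCs, limma called none of the 10 genes in either direction, and in 2i iPSCs 3.69% of tested genes passed as higher and 0.158% as lower. The share of all tested genes with an unadjusted p under 0.05 was not computed here either. Of the 10 genes, 1 had such a p, namely Calcrl. It had 5.75 and 5.80 in 2i iPSCs, against 3.34 and 3.65 in ESCs, a difference of 2.29 ± 0.60 (SE, limma adjusted p = 0.141). With the 4 compared arrays alone, or without either untreated array, it was called (limma adjusted p = 0.0183). Kcnt2 differed between the ESC lines themselves, at 2.92 in Nanog-GFP ESCs and 6.86 in EBRTcH3 ESCs, around 4.51 and 5.42 in 2i iPSCs.

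MEFs were at least 2-fold higher than both untreated clones for 1 of the 10 genes and lower than both by that much for 0, with 1 array and no test. Over all tested genes the shares were 9.9% and 11.3%. The gene was Tenm3, at 9.23 in MEFs, its highest level of the 7 arrays of that set, against 3.66 in 2B1 and 4.61 in 5C5. In contrast, Nell1, Tlcd4, Ugt8a and Kcnt2 were at 3.14, 3.22, 2.95 and 3.07 in MEFs, near the lower end of the scale.

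Relatives and partners of the 10 proteins were measured as 40 further tested genes in 9 families. On at least 1 Cnot array 7 of the 40 were at least 2-fold lower than empty vector and 4 at least 2-fold higher, where the shares of all tested genes were 9.99% and 6.37%. On all 4 Cnot arrays 2 of the 40 were lower, where 3.17% of all tested genes were. Those 2 were in the teneurin and latrophilin family. Tenm4 was at 8.43 on Cnot1, 8.91 on Cnot2, 8.51 on Cnot3 and 9.05 on Cnot123, against 10.3 on empty vector. Adgrl2, a latrophilin, was at 5.94 on Cnot1, 7.05 on Cnot2, 6.87 on Cnot3 and 6.61 on Cnot123, against 8.71 on empty vector. In the Calcrl family, the co-receptor Ramp3 was higher, at 10.6 on Cnot1, 10.4 on Cnot2, 10.5 on Cnot3 and 10.4 on Cnot123, against 9.42 on empty vector, and the ligand gene Calcb was higher by 2.02 on Cnot1 and 1.90 on Cnot2. The P2rx3 relative P2rx7 exceeded empty vector by 1.94, 1.66 and 1.15 on Cnot1, Cnot2 and Cnot3. Amphiphysin's partner Bin1 and the endophilin Sh3gl2 had lowest Cnot differences of -1.42 and -1.52, and Sh3gl2 was at -1.34 on Trim28 as well. Single arrays were past 2-fold for the Robo receptor gene Robo1 (-1.17 on Cnot1), for Tlcd1 (-1.13 on Cnot1) and for the potassium channel Kcnn4 (1.62 on Cnot123). The channel gene Kcnu1 differed by -1.25 on Cnot3 and Cnot123 and by -1.10 on Trim28.

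In the tests, 0 of the 40 relatives were called higher and 2 lower in 2i iPSCs than in untreated cells, and 1 was higher and 4 lower in ESCs. Over all tested genes the shares were 3.55% higher and 2.46% lower in 2i iPSCs, and 6.09% higher and 9.82% lower in ESCs. Calcb had a log2 difference from untreated cells of -4.18 in 2i iPSCs (limma adjusted p = 0.0100) and -4.19 in ESCs (limma adjusted p = 0.00430). For Ramp3 it was -2.80 in 2i iPSCs (limma adjusted p = 0.0107) and -1.85 in ESCs (limma adjusted p = 0.0146). In ESCs the potassium channel Kcnn2 was higher by 1.84, and the sphingolipid enzymes Cers2 and Ugcg were lower, with differences of -1.26 and -1.06 (limma adjusted p = 0.0259, 0.0196 and 0.0317 in this order).

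The genes ranked beside the 10 show where the choice fell. By the mean of the 4 Cnot differences, Nell1, Tlcd4 and Tenm2 were the 3 lowest of all tested genes, and Amph stood last of the 10, at rank 90. Just before and after Amph stood Cacnb2 with -2.49 and Susd4 with -2.47, beside -2.47 for Amph. The lowest genes outside the 10 were Xist, Adcy8, Slc6a15, Prph and Plac8, with -4.23, -4.23, -3.98, -3.91 and -3.73. Xist, the RNA that coats the inactive X chromosome, was at 8.88 on Cnot1, 11.2 on Cnot2, 10.5 on Cnot3, 4.79 on Cnot123, 12.5 on Trim28, 13.0 on Nanog and 13.1 on empty vector. It was at 13.5 in untreated 5C5 and 5.44 in untreated 2B1, clones that are both labelled female. Most like the mean profile of the 10 over the 6 transduced arrays other than empty vector were Cracd, Plbd1, Cd164l2, Cdh4 and Shtn1, with root mean square distances of 0.20, 0.28, 0.41, 0.46 and 0.46 log2 units among 12653 genes. All 5 were higher in untreated 5C5 than in untreated 2B1, as with Cracd at 6.38 and 3.14, and Plbd1 at 8.57 and 5.03. Of all tested genes 49.8% were higher in untreated 5C5. The 5 genes were picked by differences from the empty vector array, which lay nearer to untreated 5C5, so their direction is not independent of the pick.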

How the data were processed

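The deposited log2 values are probe set signals of 14 Affymetrix arrays made with RMA and the affy package, per the submitters' processing notes, without versions or settings. No genome build is given with the deposited values. The 45101 probe sets were named from the platform annotation: 64 were controls, 34945 had 1 gene, 932 several and 9160 none, and 34741 matched the RefSeq gene table of GRCm38.p6. Each gene stood for its brightest probe set by mean over the 14 arrays, and it was tested if at least 2 arrays reached the table's median of 5.42. This left out 5530 dim genes.

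The 3 groups with 2 arrays entered 1 limma model (version 3.58.1, R 4.3.3, functions lmFit and eBayes, 3 residual and 2.25 prior degrees of freedom). Calls needed a Benjamini-Hochberg adjusted p below 0.05. Since arrays of a group are separate clones or lines, p-values reflect how far these differ. Untreated and 2i arrays are paired by clone, and their deviations from the group means correlated at 0.11 across genes. The other 8 conditions had 1 array and were described. Counts against untreated 2B1 use quantile normalization of 14 arrays. Precision is limited by the number of arrays. The 10 genes, the families and the markers were chosen with earlier results of these data known. Relatives were named if called or at least 2-fold different on a transduced array, at most 4 per family by size, along with the 5 lowest and the 5 most similar genes outside the 10. The alternatives were other normalizations, filters, probe set rules, control arrays, arrays left out and a clone block. The limma step was tested on simulated data.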

Additional observations from a re-analysis of the deposited data

Results flagged for a closer look

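In 4 of the 10 genes the 2i iPSCs lay above the untreated cells of clone 2B1 and below those of clone 5C5, each difference resting on 1 array per condition and clone. The log2 difference between 2i and untreated cells was 1.02 in 2B1 and -1.86 in 5C5 for Tlcd4, 0.33 and -1.44 for Calcrl, 1.75 and -0.21 for Kcnt2, and 0.82 and -0.94 for Foxa1, in the same order of clones. The untreated 5C5 array was the highest of the 4 for Tlcd4, Calcrl, Kcnt2 and Foxa1, and untreated 2B1 the lowest. The difference between the clones was not tested, since each clone has no replicate array. The share of all tested genes with opposite differences in the clones was not computed. All 10 genes started higher in untreated 5C5 than in untreated 2B1, which by itself makes opposite signs more likely.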

How the results depend on the processing

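Each condition on the transduced arrays has 1 array, and low signals are limited by background. With untreated 2B1 as control in place of empty vector, the count of genes at least 2-fold lower became 1 for Cnot1, 0 for Cnot2, 0 for Cnot3, 1 for Cnot123, 0 for Trim28 and 0 for Nanog, against 10, 10, 10, 10, 5 and 6. For the counts below untreated 2B1 the share over all tested genes was not computed. For 2i iPSCs against untreated cells, 760 genes were called over all genes, 1396 with the 4 compared arrays alone, 297 with the clone as a replicate block on 6 arrays (added after seeing the data) and 823 with that block on 4 arrays. The groups are balanced by clone, so a block leaves each log2 difference as it was and changes only its error. Amph lost its call with the block on 6 arrays. A fit without 1 array leaves 1 array in its group, and the spread of that group then does not enter the error. Leaving out 1 array gave 43 to 1396 calls, 0 to 3 of the 10 genes higher and 0 to 2 lower. For ESCs against untreated cells, 2015 genes were called, 3141 probe sets with every probe set tested and 780 genes with the 4 arrays alone. Of the 10 genes 1 was lower, and 0 with the mean of all probe sets and with the 4 arrays alone. Leaving out 1 array gave 780 to 2328 calls, 3 to 3 higher and 0 to 4 lower. Between 2i iPSCs and ESCs, 487 genes were called, 0 of the 10 higher, and 1 with the 4 arrays alone. Leaving out 1 array gave 0 to 786 calls and 0 to 1 of the 10 higher. The cause was not tested. Of 380 log2 differences of the 10 genes recomputed in the tested comparisons, 26 changed sign, in 7 of the genes. Of these, 20 came from leaving out 1 array and 6 from other alternatives. None of the 7 called differences changed sign. In 2i iPSCs against untreated cells, leaving out untreated 5C5 turned Tlcd4, Calcrl and Foxa1 to 1.37, 0.36 and 1.39, and leaving out untreated 2B1 turned Kcnt2 and P2rx3 to -0.66 and -0.47.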
